A study of Mus musculus with 20 samples.

Results

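Interferon-stimulated genes are the transcripts that cells raise when interferon reaches its receptors, and 33 of them, chosen by name and taken as rows of a count table with 54532 genes, were followed in RNA from mouse temporomandibular joint (TMJ) condylar heads. Membership rested on a list of gene names and on no threshold. Of the 33 members, 31 had enough counts to be tested beside 15984 genes in all. *Oas3* and *Mx1* did not pass the filter on low counts and are given by their levels only.

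All animals were *Acan-Cre;Loxl2* fl/fl mice, in which a tamoxifen-inducible Cre recombinase expressed from the aggrecan locus can excise floxed *Loxl2* in aggrecan-expressing cells. The 8 control mice received vehicle and the 12 mice of the *Loxl2* knockout group received tamoxifen, by intraperitoneal injection on 5 consecutive days and monthly from then on. Injections began at 6 months of age, and tissue was taken 4 months later as condylar heads with part of the subchondral bone, from both sexes in equal numbers. Since no control was given tamoxifen, effects of the drug and of the deletion cannot be told apart.

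Library totals ran from 11153820 to 27045668 counts, at which 3 counts correspond to 0.0964 to 0.246 CPM (counts scaled by library size). *Loxl2* itself was no lower under the knockout label, with 101 CPM ± 26.9 (SD of 12 libraries) against 64.5 CPM ± 30.9 (SD of 8 libraries), a log2 fold change of 0.64 (SE 0.28, adjusted p = 0.101, edgeR) and overlapping ranges of 28.8 to 126 and 16.001 to 103 CPM. Counts cover the whole gene, so any transcripts without the floxed exons would be counted too. Whether such transcripts were present was not tested. Without knockout replicate 12, the lowest of its group, the *Loxl2* difference passed the threshold as higher (0.74, adjusted p = 0.0313, edgeR). The group is therefore called by its label throughout. By immunohistochemistry, a measure of protein and not of RNA, the study reported reduced LOXL2 in the knockout mice. Of the expected cell types, chondrocyte markers were detected in every library but were low in control replicate 8. Their summed level there was 118 CPM, against at least 1792 CPM in the other controls. Summed osteoblast and osteocyte, osteoclast, macrophage, neutrophil and mast cell markers were also lowest there among the controls. Skeletal muscle markers were high in every library. They summed to 46773 to 150934 CPM in control, highest in control replicate 8, and to 33439 to 83340 CPM in the libraries labelled knockout. Calls that changed without this library are given with their values. The labels give neither a sequencing batch nor the sex of each library, so no comparison within batches or sexes was made.

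In textbook terms, type I interferons signal through IFNAR1 and IFNAR2 to a complex that includes STAT2 and IRF9 and binds the interferon-stimulated response element (ISRE) in the promoters of its targets. Type II interferon signals through IFNGR1 and IFNGR2, and promoters of its targets can hold the gamma-activated sequence (GAS). The induced proteins include sensors of viral nucleic acid, antiviral effectors, GTPases that attack intracellular pathogens, and the transcription factors that carry the response further. In joints and bone, interferons are known mainly as restraints on osteoclast formation and as products of innate immune activation.

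The promoter windows of 4 members are shown because these genes carry the main results: *Rsad2*, *Irgm1* and *Ifitm3* differed between the groups, and *Isg15* had the longest run of ISRE letters. Each window runs from 250 bases before to 50 bases after a RefSeq start site on GRCm38.p6, is written 5′ to 3′ on the strand of the gene, and has in capitals every match to the ISRE letters TTTCNNTTTC or, on the other strand, GAAANNGAAA.
*Rsad2* (chr12:26456403-26456702, minus strand): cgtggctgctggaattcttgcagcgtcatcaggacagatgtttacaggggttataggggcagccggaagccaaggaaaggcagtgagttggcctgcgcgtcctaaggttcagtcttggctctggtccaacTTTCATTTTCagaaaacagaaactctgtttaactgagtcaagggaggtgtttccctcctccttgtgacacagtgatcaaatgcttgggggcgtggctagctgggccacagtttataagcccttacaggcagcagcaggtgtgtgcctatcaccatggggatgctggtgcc
*Irgm1* (chr11:48871371-48871670, minus strand): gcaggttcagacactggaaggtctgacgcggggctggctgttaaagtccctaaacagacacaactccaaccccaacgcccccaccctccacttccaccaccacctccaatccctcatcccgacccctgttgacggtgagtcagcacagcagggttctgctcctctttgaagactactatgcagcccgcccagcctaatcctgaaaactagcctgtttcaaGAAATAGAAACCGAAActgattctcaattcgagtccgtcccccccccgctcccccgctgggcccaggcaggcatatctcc
*Ifitm3* (chr7:141010695-141010994, minus strand): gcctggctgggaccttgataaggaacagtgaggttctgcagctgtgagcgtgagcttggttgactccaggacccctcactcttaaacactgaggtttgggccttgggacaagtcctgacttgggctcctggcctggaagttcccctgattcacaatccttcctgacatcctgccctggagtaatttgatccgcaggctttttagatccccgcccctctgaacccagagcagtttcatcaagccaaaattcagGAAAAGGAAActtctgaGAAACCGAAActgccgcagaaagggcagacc
*Isg15* (chr4:156200769-156201068, minus strand): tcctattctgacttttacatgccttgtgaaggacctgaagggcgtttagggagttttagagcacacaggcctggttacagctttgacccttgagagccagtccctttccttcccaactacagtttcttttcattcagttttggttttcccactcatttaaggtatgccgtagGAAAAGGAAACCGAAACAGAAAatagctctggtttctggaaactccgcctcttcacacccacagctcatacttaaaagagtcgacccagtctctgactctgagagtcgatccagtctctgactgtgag
The match in *Rsad2* was the single stretch TTTCATTTTC, starting 120 bases upstream of the start site. In *Irgm1*, 2 overlapping matches formed the 16 bases GAAATAGAAACCGAAA, starting 30 bases upstream. In *Isg15*, 3 overlapping matches formed GAAAAGGAAACCGAAACAGAAA, starting 78 bases upstream. *Ifitm3* held GAAAAGGAAA and GAAACCGAAA, both in the bases downstream of the annotated start.

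Across the list, 26 members had an entry in the RefSeq promoter table, with 30 windows between them, and no entry was found for *Mx1*, *Mx2*, *Oas2*, *Ifi27*, *Iigp1*, *Usp18* and *Parp14*. ISRE letters were present in at least 1 window of 17 of these 26 members (65.4%), against 3.99% of the 27025 genes in the table. The GAS letters TTCNNNGAA, which read the same on both strands, were present in 9 of the 26 (34.6%), against 9.55% of genes, and overlapped ISRE letters in *Bst2* and *Ifitm3*. Such matches describe the letters and not occupied sites. The 16 tested members with ISRE letters had a median log2 fold change of 0.12 between the groups, and the 9 tested members whose windows lacked them had 0.07.

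The members that differed most from the rest in level were *Ifitm3* and *Ifi27*. Per kilobase of exon, control levels were 63.4 CPM for *Ifitm3*, a membrane protein that blocks virus entry, and 32.2 CPM for *Ifi27*, which encodes a small hydrophobic protein of the mitochondrial and nuclear membranes. *Bst2* followed with 12.4 CPM per kilobase, *Igtp* with 9.09 and *Ifi35* with 7.18. At the low end stood *Oas3* with 0.0966, *Mx1* with 0.127, *Ifi44* with 0.244 and *Mx2* with 0.285 CPM per kilobase. *Oas3* and *Mx1* had 0 to 59 counts and 1 to 39 counts per library and were not tested with edgeR. The DESeq2 Wald test did not call them (adjusted p = 0.675 and 0.707), which at such counts does not show equal levels. Counts of close relatives, such as *Ifit3* and *Ifit3b*, the *Oas1* genes, the *Gbp* genes or the *Ifitm* genes, are uncertain where reads match several of them, and *Mx2* is annotated as a polymorphic pseudogene.

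The comparison of knockout with control was made to find which of these genes differ in the joint. Of the 31 tested members, 4 passed an adjusted p of 0.05 (12.9%), against 23% of all tested genes. *Ifitm3* and *Ifi27* were higher in the libraries labelled knockout (6.45% of the tested members, against 12% of all genes), and *Rsad2* and *Irgm1* were lower (6.45%, against 11%). With 2 members called in each direction these shares rest on few genes, and no list was tested as a set. The median log2 fold change was 0.07 over the members and -0.02 over all genes. Fold changes of the members ran from -0.95 to 0.53 on the log2 scale, with 21 above 0 and 10 below (18 to 23 above 0 under other scalings). At an unadjusted p under 0.05 there were 7 members (22.6%), against 37% of all genes. The DESeq2 Wald test called the same 4 members, against 22.3% of its tested genes. In none of the 31 members were the groups fully apart, which was the case for 0.3% of all genes. The libraries are separate animals, and in whole tissue fewer cells of a type and less RNA per cell cannot be told apart.

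**Figure D1:**
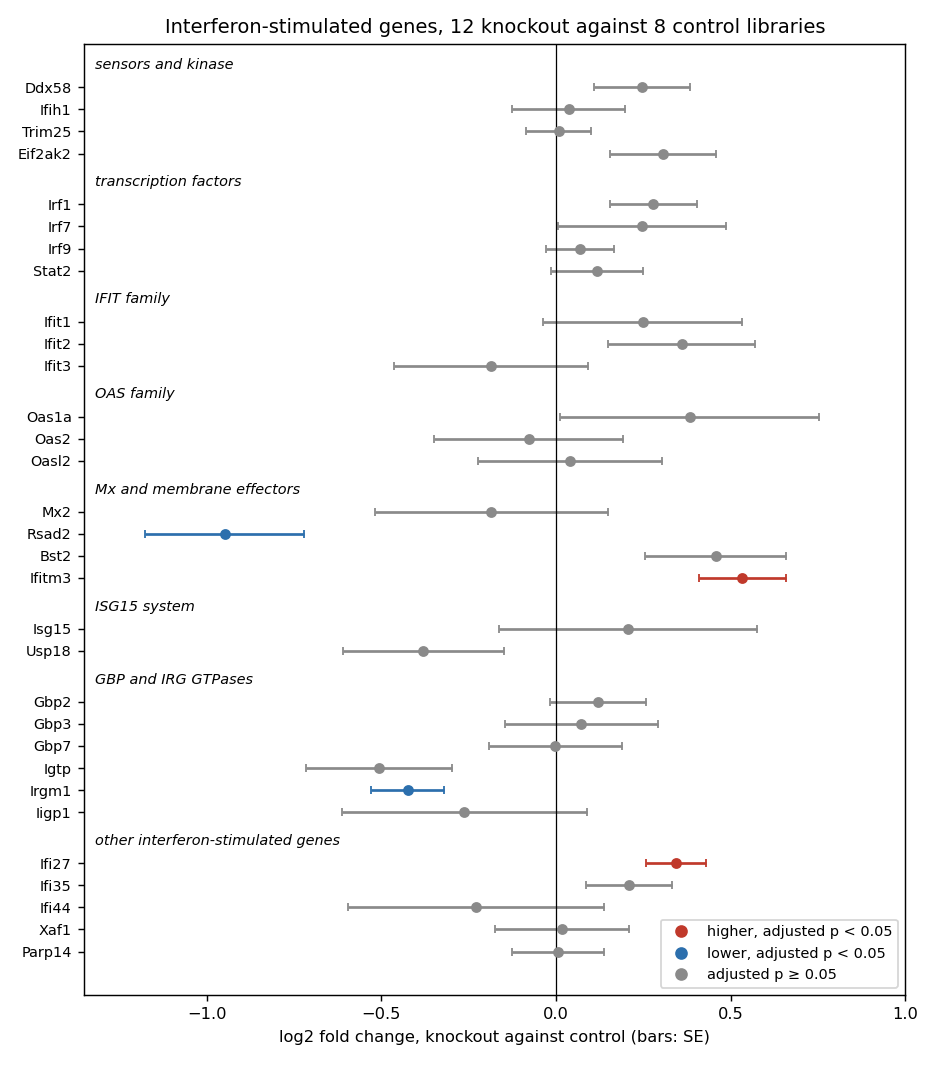
Log2 fold change of each tested member, 12 libraries labelled knockout against 8 control libraries, grouped by role, with bars for the SE and colours for the edgeR adjusted p. *Rsad2* (-0.95) and *Irgm1* (-0.42) lie below 0 past the threshold, *Ifitm3* (0.53) and *Ifi27* (0.34) above it, and the other 27 members did not pass.

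*Ifitm3* (ENSMUSG00000025492) ranged from 34.1 to 53.8 CPM in control, with a median of 43.8, and from 47.7 to 82.7 CPM in the libraries labelled knockout, with a median of 57.7. All 12 lay above the control median and 8 above the highest control. The mean rose from 43.0 CPM ± 7.72 (SD of 8 libraries) to 62.2 CPM ± 12.6 (SD of 12 libraries), or 0.53 as log2 fold change (SE 0.12, adjusted p = 0.00568, edgeR). Its relatives *Ifitm1* and *Ifitm2*, taken from a list of further interferon-stimulated genes, also rose, by 1.20 (adjusted p = 0.0212) and 0.64 (adjusted p = 0.00552) on the log2 scale.

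*Ifi27* (ENSMUSG00000064215, chr12:103434211-103440239, plus strand) ranged from 40.1 to 52.4 CPM in control, with a median of 47.5, and from 48.8 to 72.7 CPM in the libraries labelled knockout, with a median of 59.2. Again all 12 were above the control median, and 9 were above every control. The mean was 47.3 CPM ± 4.39 (SD of 8 libraries) against 60.0 CPM ± 8.45 (SD of 12 libraries), or 0.34 as log2 fold change (SE 0.086, adjusted p = 0.00846, edgeR). For both genes the lowest control was replicate 8 and the highest knockout replicate 6. With both of these libraries left out, the log2 fold changes were 0.46 for *Ifitm3* (adjusted p = 0.0179) and 0.30 for *Ifi27* (adjusted p = 0.0247). *Ifi27l2a*, a relative of *Ifi27* from the list of further interferon-stimulated genes, was not called. It ranged from 1.38 to 15.2 CPM in control and from 2.28 to 24.7 CPM in the libraries labelled knockout.

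*Rsad2* (ENSMUSG00000020641) encodes viperin, a radical SAM enzyme that makes a chain-terminating nucleotide against viruses. Its control values spread from 4.39 to 15.9 CPM, with a median of 7.27, and those of the libraries labelled knockout from 2.01 to 6.17 CPM, with a median of 4.23. All 12 were below the control median and 7 below the lowest control. The mean fell from 8.44 CPM ± 3.86 (SD of 8 libraries) to 4.37 CPM ± 1.23 (SD of 12 libraries), or -0.95 as log2 fold change (SE 0.23, adjusted p = 0.00638, edgeR), the largest among the members. Control replicate 6 was the highest, and over all omissions of a single library the log2 fold change stayed between -1.05 and -0.75, closest to 0 without that library.

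*Irgm1* (ENSMUSG00000046879), a regulator of the immunity-related GTPases at phagosomes and autophagosomes, ranged from 20.3 to 32.8 CPM in control, with a median of 24.5. In the libraries labelled knockout it ranged from 15.6 to 27.1 CPM, with a median of 18.5. A single library, knockout replicate 6, stood above the control median, and 9 of 12 were below the lowest control. The mean fell from 25.7 CPM ± 4.37 (SD of 8 libraries) to 19.1 CPM ± 3.002 (SD of 12 libraries), or -0.42 as log2 fold change (SE 0.10, adjusted p = 0.00743, edgeR). Scaled by library totals alone it did not pass (-0.26, adjusted p = 0.0655), a scaling under which the median of all genes moved from -0.02 to 0.12.

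**Figure D2:**
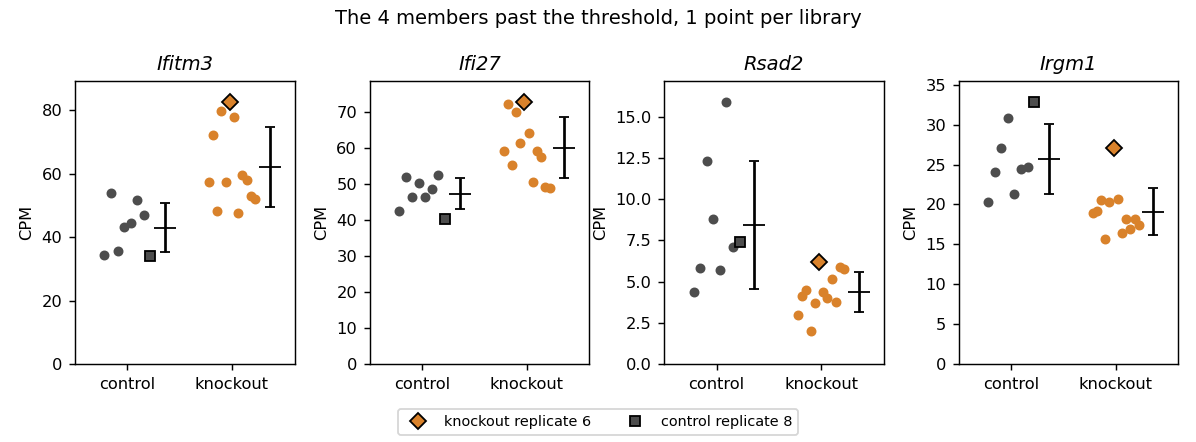
CPM of the 4 called members in every library (points), with the mean and SD of each group beside them, for 8 control and 12 knockout libraries. Diamonds mark knockout replicate 6, the highest of its group in all 4 panels, and squares control replicate 8, the lowest control for *Ifitm3* and *Ifi27* and the highest for *Irgm1*.

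Macrophage and osteoclast markers moved with the groups. Of 8 macrophage markers 6 were higher in the libraries labelled knockout, with summed levels of 135 to 535 CPM against 46.7 to 220 CPM in control. Of 7 osteoclast markers all 7 were higher, at 561 to 7646 CPM against 110 to 1338 CPM. Of all tested genes 12% were higher. Both control minima were in control replicate 8. The other controls began at 73.7 CPM for macrophage and 188 CPM for osteoclast markers. With the mean log2 level of the macrophage list as covariate, edgeR called 0 of 15984 genes (1303 at an unadjusted p under 0.05, 3 of them members), and the log2 fold changes became 0.14 for *Ifitm3*, 0.09 for *Ifi27*, -0.74 for *Rsad2* and -0.36 for *Irgm1*. With the osteoclast list as covariate, 0 genes were called (1284 at an unadjusted p under 0.05, 0 of them members), and the values were 0.35, 0.18, -0.70 and -0.35 in the same order. DESeq2 was not run with these covariates. Whether such cells carry the differences was not tested.

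Other lists moved too. Mast cell markers had the largest median log2 fold change of the lists (3.35) and were higher for 4 of 5 tested. Neutrophil markers had a median of 2.16, with 1 of 8 higher at the adjusted threshold and 7 at an unadjusted p under 0.05, beside summed levels of 14.2 to 880 CPM against 5.51 to 154 CPM in control. Osteoblast and osteocyte markers were higher for 4 of 8 (median 1.18), and skeletal muscle markers were lower for 3 of 8 (median -0.57). Chondrocyte markers were higher for 1 of 8 tested, *Col9a1*, and lower for 0 (median 0.42, edgeR). Of all tested genes 12% were higher and 11% lower. The fold changes of the members were not fitted with these lists as covariates. Plasmacytoid dendritic cells, known for their output of type I interferon, had 5 markers listed, of which 2 could be tested and 0 passed (edgeR, adjusted; also 0 at an unadjusted p under 0.05 and 0 by DESeq2), with *Siglech* at 0.876 and 1.16 CPM on average. Summed T and NK cell markers ranged from 0.691 to 2.79 CPM in control and from 0.394 to 11.9 CPM in the libraries labelled knockout. Only *Cd4* could be tested among the 8, and it was higher (log2 fold change 1.78, adjusted p = 0.0309). Of 6 endothelial markers 0 passed with edgeR or DESeq2, and 0 had an unadjusted p under 0.05.

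The sensors and the kinase did not pass. *Ddx58*, which encodes the RNA sensor RIG-I, had a log2 fold change of 0.25 (adjusted p = 0.196), *Ifih1*, which encodes the sensor MDA5, 0.04 (adjusted p = 0.897), and *Eif2ak2*, the kinase PKR that halts translation on double-stranded RNA, 0.31 (adjusted p = 0.148). *Trim25*, the ubiquitin ligase that activates RIG-I, had the highest mean level of the members that did not pass. It ranged from 20.0 to 31.2 CPM in control (median 26.0) and from 20.8 to 31.7 CPM in the libraries labelled knockout (median 27.01). The means of 26.2 CPM ± 3.43 (SD of 8 libraries) and 26.4 CPM ± 3.48 (SD of 12 libraries) gave a log2 fold change of 0.01 (SE 0.093, adjusted p = 0.961, edgeR), whose sign changed under other scalings.

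Among the transcription factors, *Irf1*, which drives many targets of type II interferon, ranged from 14.8 to 24.3 CPM in control (median 17.9) and from 17.0 to 35.3 CPM in the libraries labelled knockout (median 22.1). Of the 12, 10 lay above the control median. The means of 18.7 CPM ± 2.97 (SD of 8 libraries) and 22.6 CPM ± 4.98 (SD of 12 libraries) differed by 0.28 on the log2 scale (SE 0.12, adjusted p = 0.107, edgeR), which did not pass. *Stat2*, a part of the type I complex, ranged from 10.8 to 23.2 CPM in control (median 21.2) and from 17.6 to 29.9 CPM in the other group (median 20.3). Its means were 19.3 CPM ± 4.66 (SD of 8 libraries) and 20.9 CPM ± 3.29 (SD of 12 libraries), with a log2 fold change of 0.12 (SE 0.13, adjusted p = 0.543, edgeR). *Irf9*, the DNA-binding subunit of that complex, had 0.07 (adjusted p = 0.637), and *Irf7*, the amplifier of interferon alpha transcription, had 0.25 (adjusted p = 0.483).

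The RNA-binding IFIT proteins, which recognise foreign 5′ ends, did not pass. The log2 fold changes were 0.25 for *Ifit1* (adjusted p = 0.557), 0.36 for *Ifit2* (adjusted p = 0.221) and -0.19 for *Ifit3* (adjusted p = 0.663). Among the oligoadenylate synthetases, which activate RNase L, *Oas1a* had 0.38 (adjusted p = 0.478) and *Oas2* -0.08 (adjusted p = 0.866), and their relative *Oasl2* had 0.04 (adjusted p = 0.931). *Oas3* ranged from 0.0681 to 2.28 CPM in control and from 0 to 2.25 CPM in the libraries labelled knockout. The dynamin-like *Mx2* had -0.19 (adjusted p = 0.723), and *Mx1* ranged from 0.0766 to 1.05 CPM and from 0.0463 to 1.49 CPM. In each of these genes the ranges of the groups overlapped widely.

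*Bst2*, the gene of tetherin, which holds budding virions at the cell surface, ranged from 6.89 to 17.6 CPM in control (median 10.5) and from 8.08 to 30.7 CPM in the libraries labelled knockout (median 14.4). Although 11 of 12 lay above the control median, it did not pass (0.46, adjusted p = 0.106). Without control replicate 5 it did (0.58, adjusted p = 0.0401). *Isg15*, a ubiquitin-like modifier, had 0.21 (adjusted p = 0.720), and *Usp18*, which removes ISG15 and blocks IFNAR2, had -0.38 (adjusted p = 0.237), with 11 of 12 libraries below the control median.

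The guanylate-binding proteins, which coat vacuoles and bacteria, were close to 0, at 0.12 for *Gbp2* (adjusted p = 0.556), 0.07 for *Gbp3* (adjusted p = 0.845) and -0.0016 for *Gbp7* (adjusted p = 0.996). *Igtp*, another regulatory GTPase of the *Irgm1* family, ranged from 10.1 to 35.98 CPM in control (median 16.8) and from 7.41 to 21.1 CPM in the libraries labelled knockout (median 12.8), with 11 of 12 below the control median. Its log2 fold change of -0.51 did not pass (adjusted p = 0.0817) but did so at -0.59 without knockout replicate 6 (adjusted p = 0.0407), control replicate 1 (adjusted p = 0.0410) or control replicate 6 (adjusted p = 0.0492). Without control replicate 8, its highest control, the value was -0.29. *Iigp1*, an effector GTPase of the same family, had -0.26 (adjusted p = 0.622).

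Of the remaining members, *Ifi35*, a leucine zipper protein, had 0.21 (adjusted p = 0.226), *Ifi44* -0.23 (adjusted p = 0.686), *Xaf1*, an antagonist of the apoptosis inhibitor XIAP, 0.02 (adjusted p = 0.961), and *Parp14*, a mono-ADP-ribosyltransferase, 0.01 (adjusted p = 0.981). A missed threshold does not show equal levels, and the 95% intervals give the range that remains. For 25 of the 27 members that did not pass, the interval of the log2 fold change lay within 1 unit either way, and for 9 within 0.5. The exceptions to the wider limit were *Oas1a* and *Iigp1*.

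Among the libraries, 1 stood apart for these genes. Knockout replicate 6 held the highest value of its group for 24 of the 31 tested members (77.4%), against 8.33% of all tested genes. It was above every other library, controls included, for 19 of 31, against 4.16% of all genes. The ratio of its level to the median of the other 11 knockout libraries had a median of 1.58 over the members and of 1.02 over all genes, and was 1.5 or more for 18 members, against 11.6% of all genes. This library was singled out after its values were seen, so the comparison is a description.

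**Figure D3:**
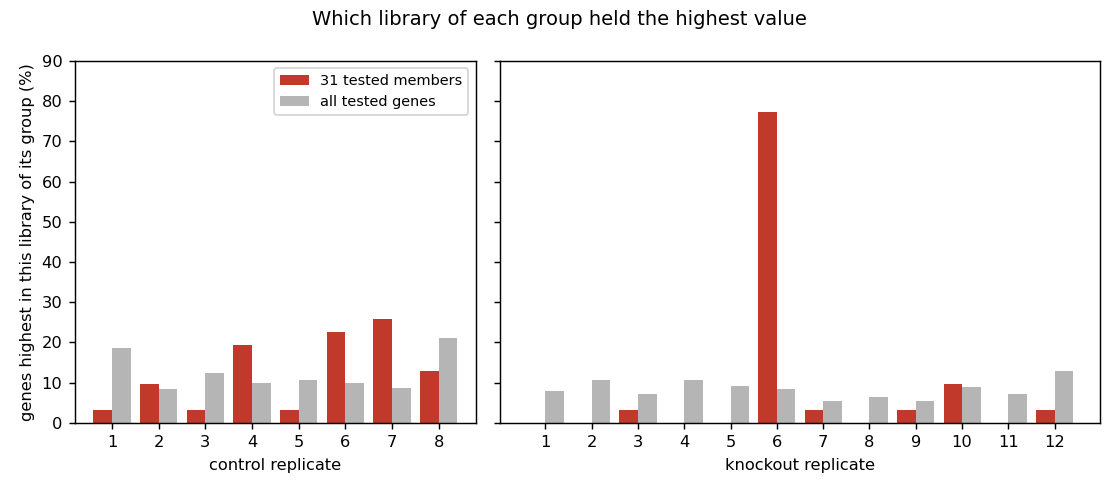
Share of the 31 tested members (red) and of all tested genes (grey) whose highest value within the group fell in each library, for control replicates 1 to 8 (left) and knockout replicates 1 to 12 (right). Knockout replicate 6 held 77.4% of the members and 8.33% of all genes.

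The rise in that library was uneven across members. *Isg15* stood at 7.73 CPM there against a median of 1.83 in the other knockout libraries, a ratio of 4.23. *Iigp1* stood at 21.9 against 5.49 CPM, *Oas1a* at 4.30 against 1.22, *Oasl2* at 20.1 against 5.98, *Irf7* at 15.7 against 5.39, *Ifit1* at 6.40 against 2.36 and *Bst2* at 30.7 against 14.0. The filtered members followed, *Oas3* with 59 counts (2.25 against 0.274 CPM) and *Mx1* with 39 counts (1.49 against 0.193 CPM). Among the sensors and the kinase the ratios were 1.03 for *Ifih1*, 1.14 for *Ddx58*, 1.20 for *Trim25* and 0.927 for *Eif2ak2*, the lowest of the list. *Trim25* was still above every other library, at 31.7 CPM. Ratios were also low in other roles, at 1.17 for *Ifi35* and 1.23 for *Ifi27*. Of 14 other sensing genes, from the pathway lists, 4 peaked in the library, beside 8.33% of all genes. Among these 4 were *Zbp1*, a sensor of Z-form nucleic acid, at 5.33 against 0.741 CPM, and *Dhx58*, the RIG-I relative LGP2, at 4.76 against 2.39 CPM. The other sensing genes peaked elsewhere, and over all 14 the ratios ran from 0.872 for *Tlr3* to 7.19 for *Zbp1*. *Ifit2*, at 1.01, was set apart from *Ifit1*, at 2.71, and *Ifit3*, at 2.27. *Rsad2* was highest there among the knockout libraries, at 6.17 CPM, yet below the control median.

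Members were high in this library both with and without ISRE letters. Of the 16 tested members with ISRE letters 13 peaked there, with a median ratio of 1.51, and of the 9 without them 7 did, with a median ratio of 1.58.

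Marker genes of lymphocytes were also high in knockout replicate 6 among the knockout libraries. T and NK cell markers summed to 11.9 CPM, against a median of 2.49 and a maximum of 6.84 in the other knockout libraries, and 7 of 8 were highest there within the group. B cell markers summed to 17.4 CPM, against a median of 2.36 and a maximum of 8.46, with 5 of 5 highest there. In the controls, however, the B cell sum ran from 1.18 to 34.2 CPM, so its level was not particular to this library. Between the groups 0 of 4 tested B cell markers passed with edgeR (median log2 fold change -0.86). Macrophage markers summed to 535 CPM, the top of the group, against a maximum of 499 in the others, though 0 of 8 single markers peaked there. Plasmacytoid dendritic cell markers summed to 19.4 CPM, above the median of 13.6 in the others, and 0 of 5 peaked there. This sum follows single genes more than the list. *Pacsin1* alone averaged 13.2 CPM in the libraries labelled knockout, and *Klk1* reached 174 CPM in another knockout library. The part of lymphocytes, macrophages and plasmacytoid dendritic cells in the members' levels was not tested.

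**Figure D4:**
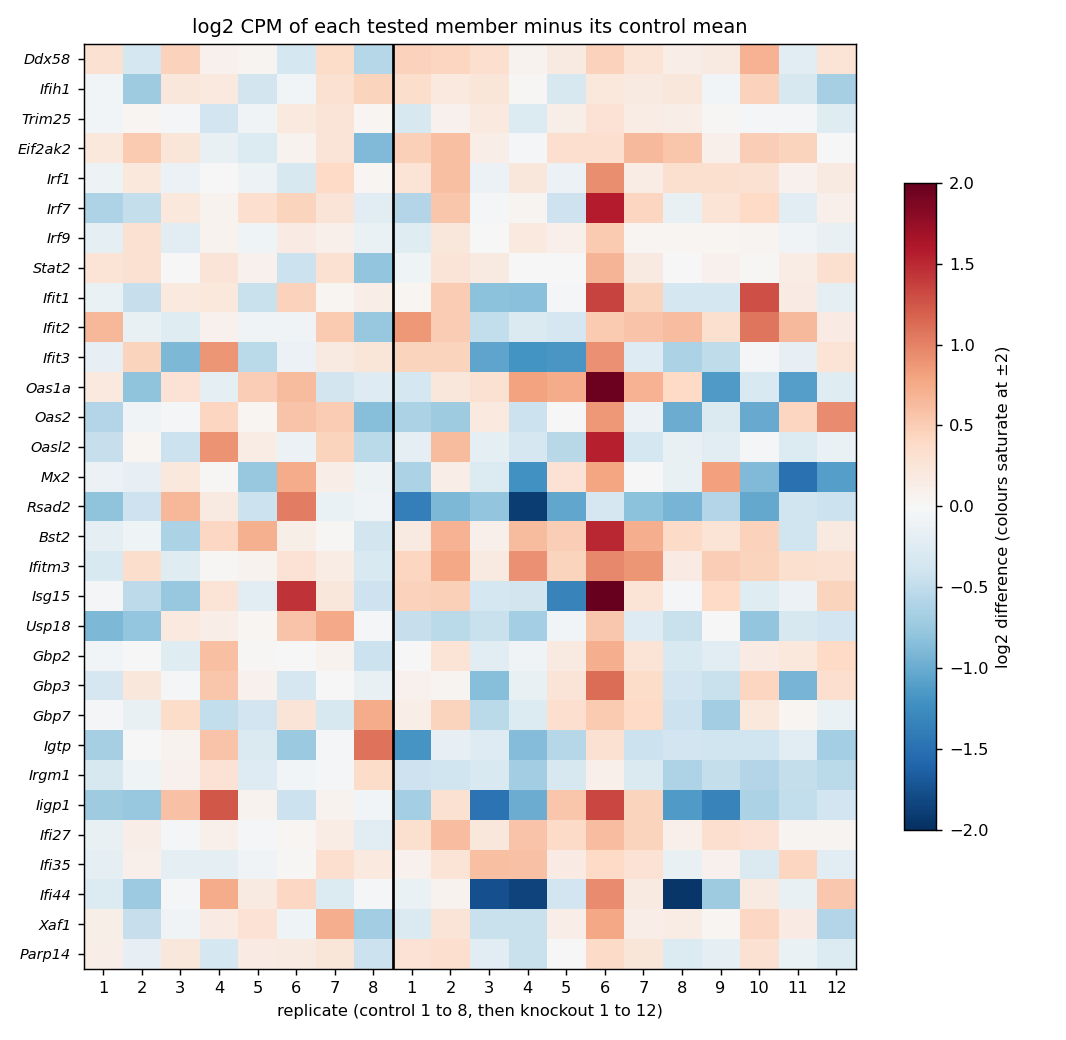
Log2 CPM of each tested member minus its control mean, in control replicates 1 to 8 (left of the line) and knockout replicates 1 to 12 (right), with red for higher and blue for lower. The column of knockout replicate 6 is above the control mean for 30 of 31 members, all but *Rsad2* (-0.33). The row of *Rsad2* is blue in every knockout library.

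The median difference of the members from their control means was 0.72 on the log2 scale in knockout replicate 6. In the other knockout libraries it ran from -0.28 in replicate 4 to 0.28 in replicate 2, and in the controls from -0.15 in replicate 1 to 0.17 in replicate 7, so the groups overlapped. The SD of log2 CPM within a group, as a median over members, was 0.42 in control and 0.40 in the libraries labelled knockout, and 0.33 without knockout replicate 6, against 0.39, 0.34 and 0.35 over all genes. Without this library 15 of the 31 members had a fold change above 0, in place of 21, and the median over members was -0.02. The 4 called members stayed called and *Igtp* joined them. *Isg15*, *Oasl2* and *Gbp3*, above 0 with all libraries, were at -0.12, -0.21 and -0.07 without it, and none of these passed. *Oas1a* moved from 0.38 to 0.08, *Irf7* from 0.25 to 0.04 and *Ifit1* from 0.25 to 0.09, and *Iigp1* from -0.26 to -0.52, also without passing.

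Control replicate 8 was the lowest control for 11 of 31 members (35.5%, against 23.2% of all genes). It was the highest control for 4 (12.9%, against 21.2% of all genes), among them *Igtp* and *Irgm1*. Without it *Irgm1* still fell (-0.36, adjusted p = 0.0225), while of the pathway genes described next *Ptpn6* (0.90, adjusted p = 0.0587) and *Ifit3b* (-0.50, adjusted p = 0.129) missed the threshold.

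The other genes of the pathway were taken from lists of 102 genes, of which 77 could be tested. In all, 14 were higher and 2 lower in the libraries labelled knockout (20.8% of the tested, against 23% of all genes). They were unevenly spread: 12 of the 32 tested receptor, regulator and sensing genes passed (37.5%), and 4 of the 45 tested further interferon-stimulated genes (8.89%).

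No ligand could be tested. Of 20 interferon genes 14 had 0 counts in every library. The 6 others had 21 counts in all, 14 in control and 7 in the libraries labelled knockout. No single gene had more than 5 counts in a library. In control replicate 4, *Ifna13* and *Ifnab* each stood at 0.298 CPM. *Ifnb1*, the interferon beta gene, had 0 counts and *Ifng*, the interferon gamma gene, 2. Summed over all ligands, knockout replicate 6 held 3 counts. The floor of 3 counts per library, 0.0964 to 0.246 CPM, sets what these libraries could show.

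Of 9 receptor and JAK kinase genes 4 were higher, all of them receptor chains. *Ifnar1* rose from 26.9 CPM ± 3.84 (SD of 8 libraries) to 36.4 CPM ± 5.25 (SD of 12 libraries), or 0.44 as log2 fold change (SE 0.099, adjusted p = 0.00461, edgeR). *Ifnar2* rose by 0.59 (adjusted p = 0.00633), *Ifngr1* by 0.44 (adjusted p = 0.00629) and *Il10rb*, which is shared by the receptors of interferon lambda and interleukin 10, by 0.74 (adjusted p = 0.00179). In each of these 4 genes the control median was exceeded by all 12 libraries of the knockout group. *Ifngr2* did not pass and had -0.24 (adjusted p = 0.161), or -0.08 (adjusted p = 0.569) without control replicate 8, where it stood at 123 CPM against at most 79.4 CPM in the other controls.

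Among 9 regulators 4 were higher. *Socs3* rose by 1.19 (adjusted p = 0.00115) and *Socs1* by 1.15 (adjusted p = 0.00648), both feedback inhibitors of JAK kinases. *Irf5*, a transcription factor of myeloid cells downstream of Toll-like receptors, rose by 0.60 (adjusted p = 0.0128), and *Ptpn6*, the phosphatase SHP-1 of blood cells, by 1.06 (adjusted p = 0.0412). *Ptpn6* was the least stable and lost the call in 15 of the 20 omissions of a single library. Among 14 genes of nucleic acid sensing *Ticam1*, the adaptor TRIF, rose by 0.53 (adjusted p = 0.00371), *Myd88* by 0.61 (adjusted p = 0.0104) and *Tmem173*, which encodes STING, by 0.51 (adjusted p = 0.0172). *Mavs*, the mitochondrial adaptor of RIG-I and MDA5, fell from 84.8 CPM ± 10.4 (SD of 8 libraries) to 65.3 CPM ± 11.1 (SD of 12 libraries), or -0.38 as log2 fold change (SE 0.099, adjusted p = 0.0105, edgeR), with all 12 libraries below the control median. The summed macrophage and osteoclast markers given above also moved with these groups, and with either list as covariate none of these genes passed, as no gene of the whole table did.

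**Figure D5:**
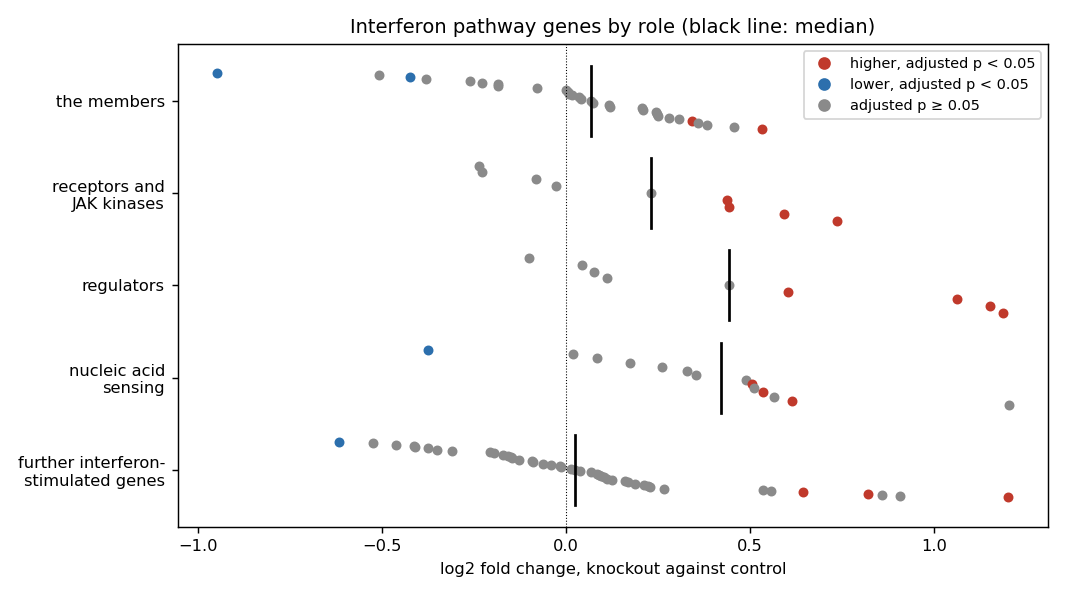
Log2 fold changes of the members and of the other tested pathway genes by role, 1 point per gene, with colours for the edgeR adjusted p and a black line for the median of each list. The medians were 0.07 for the members, 0.23 for receptors and JAK kinases, 0.44 for regulators, 0.42 for nucleic acid sensing and 0.03 for further interferon-stimulated genes.

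The further interferon-stimulated genes stayed near 0, with a median of 0.03 over 45 tested. *Ifitm1* and *Ifitm2* rose, as given above, and so did *Lgals3bp*, a secreted glycoprotein (0.82, adjusted p = 0.0153). *Ifit3b*, a close copy of *Ifit3*, fell by 0.62 (adjusted p = 0.0488), a call lost in 17 of the 20 omissions of a single library. With control replicate 8 and knockout replicate 6 both left out, 4 pathway genes missed the threshold, *Ifitm1* (1.06, adjusted p = 0.0555), *Tmem173* (0.45, adjusted p = 0.0559), *Ifit3b* (-0.57, adjusted p = 0.0919) and *Ptpn6* (0.76, adjusted p = 0.0942). Of the 45 further genes 23 were highest in knockout replicate 6 among the knockout libraries (51.1%, against 8.33% of all genes).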

How the data were processed

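Total RNA was extracted with TRIzol from condylar heads and sequenced as paired-end Illumina reads. Per the study's methods the authors had the reads trimmed at the sequencing provider, aligned to mm10 and assigned to genes by featureCounts, and the deposited table holds these raw counts for the 20 libraries. The aligner, annotation release and strand setting are not given in the sources used here. Symbols, exon lengths and coordinates came from GENCODE M21 by identifier (54495 of 54532 genes), and promoter sequences from RefSeq (GRCm38.p6).

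Genes were filtered by filterByExpr, libraries scaled by TMM, and the libraries labelled knockout compared with control by the two-sided quasi-likelihood F-test of edgeR 4.0.16 (R 4.3.3), with Benjamini-Hochberg adjustment over all tested genes and a threshold of 0.05. SEs follow from log2 fold change and F. The study's own test, the DESeq2 Wald test (1.42.0), was an alternative. Log2 CPM of single libraries has a prior count of 2. The procedure was tested on simulated data. Groups came from the sample titles. The p-values set the difference between the groups against the spread between libraries within them.

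The members and lists were chosen with earlier results of these data known, so no list was tested as a set. All members are named, with full values for those past the threshold and for the 3 others with the highest mean CPM. Of the pathway lists, genes past the threshold are named, at most the 5 with the smallest p in each direction of each list, beside the interferon receptor genes, *Ifnb1* and *Ifng*. A few others are named where they are set beside a member or a single library. Of the pathway lists 1 gene is not reported here. Alternatives were other scalings (size factors of DESeq2, upper quartiles, library totals), other filters (none, or a mean of at least 1 CPM), robust dispersion, a replicate block, macrophage or osteoclast markers as covariate, and omission of each library.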

Additional observations from a re-analysis of the deposited data

Results flagged for a closer look

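Among 49 genes given with values, the highest and lowest of the 8 controls were compared with the rest on the log2 CPM scale, and 3 lay farther from their nearest neighbour than Dixon's 95% limit for 8 values. Chance alone would flag about 1 in 20 groups. *Isg15* stood at 5.25 CPM in control replicate 6, where its gap took 0.532 of the range and where *Rsad2* was also highest among the controls. *Socs1* stood at 0.919 CPM in control replicate 8 (0.590 of the range), the library with the lowest chondrocyte markers. *Ifit3b* stood at 3.75 CPM in control replicate 5 (just past the limit). The 12 libraries labelled knockout were too many for this comparison.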

How the results depend on the processing

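*Ifitm3*, *Ifi27* and *Rsad2* kept their direction and their call under every scaling, filter, test, dispersion and block tried and in all 20 omissions of a single library, and lost the call with each covariate. *Irgm1* lost its call with each covariate, with library totals alone and with the replicate block, and 1 member was then called lower under each of the last 2. Omitting 1 library gave 4 to 5 members called (2 to 3 higher, 2 to 3 lower), 14 to 16 pathway genes called (13 to 15 higher, 1 to 2 lower), a median over members of -0.02 to 0.16 and a *Loxl2* log2 fold change of 0.50 to 0.78. The median over members was below 0 without knockout replicate 6, with a covariate (-0.08 with macrophage and -0.11 with osteoclast markers) and with control replicate 8 and knockout replicate 6 both left out (-0.00060), an alternative chosen after seeing the data. With either covariate 0 members (0 higher, 0 lower) and 0 pathway genes (0 higher, 0 lower) were called with edgeR, as were 0 genes of the whole table. Only 1 pathway gene, *Mavs*, was called lower with library totals alone, no filter, the replicate block, the libraries of replicates 1 to 8 only, or both libraries left out. The whole table had 1786 calls with the block (11.5%), 2269 with both libraries left out (14.1%) and, without control replicate 8 alone, 2551 (15.7%). With library totals alone 72% of calls were higher, in place of 52.2%.

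The remaining changes of sign are in values that did not pass, except *Ifitm1* and *Ptpn6*, and the cause was not tested. DESeq2 size factors gave -0.0026 for *Trim25* and -0.0049 for *Parp14*, the DESeq2 Wald test gave -0.00069 and -0.0035, and upper-quartile factors gave -0.0079 and -0.011, beside -0.00093 for *Xaf1*. *Gbp7* was at 0.18 with library totals alone, 0.015 with no filter, 0.087 with the replicate block and 0.073 in the libraries of replicates 1 to 8, and *Oas2* at 0.029 with library totals alone. The macrophage covariate gave -0.57 for *Oas1a*, -0.41 for *Xaf1*, -0.38 for *Parp14*, -0.23 for *Gbp3*, -0.22 for *Oasl2*, -0.21 for *Irf7*, -0.15 for *Isg15*, -0.11 for *Loxl2*, -0.10 for *Ifit1*, -0.086 for *Bst2*, -0.080 for *Irf9*, -0.071 for *Trim25*, 0.024 for *Ifngr2*, 0.055 for *Ifit3* and 0.072 for *Oas2*. The osteoclast covariate gave -0.68 for *Oasl2*, -0.66 for *Isg15*, -0.36 for *Irf7*, -0.35 for *Parp14*, -0.31 for *Xaf1*, -0.23 for *Ifitm1*, -0.16 for *Gbp3*, -0.11 for *Irf1*, *Stat2* and *Ifit1*, -0.095 for *Ptpn6*, -0.088 for *Ifih1*, -0.086 for *Ifit2*, -0.047 for *Ddx58*, -0.038 for *Irf9* and *Trim25*, 0.089 for *Gbp7* and 0.18 for *Oas2*. With both libraries left out the values were -0.27 for *Oasl2*, -0.17 for *Isg15*, -0.14 for *Xaf1*, -0.085 for *Gbp3*, -0.074 for *Parp14*, -0.014 for *Stat2*, -0.00060 for *Trim25* and 0.091 for *Gbp7*. Omitting 1 library changed the sign of 10 genes in at least 1 case, with ranges of -0.028 to 0.048 for *Trim25*, -0.21 to 0.22 for *Oasl2*, -0.038 to 0.12 for *Ifih1*, -0.071 to 0.15 for *Xaf1*, -0.037 to 0.043 for *Parp14*, -0.057 to 0.14 for *Gbp7*, -0.52 to 0.00025 for *Iigp1*, -0.20 to 0.018 for *Oas2*, -0.12 to 0.55 for *Isg15* and -0.073 to 0.18 for *Gbp3*.

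Replicate numbers 1 to 8 occur in both groups, yet correlations of same-numbered deviations ran from -0.36 to 0.17. Only 2 of 8 pairs were over 0.1, and 0 controls correlated best with their own number. These values gave no sign of a pairing by number. They cannot exclude one, since the labels do not say what the numbers stand for. With the replicate block *Irgm1* had -0.37 (adjusted p = 0.111) and *Bst2* passed (0.59, adjusted p = 0.0452), while 3 pathway genes missed the threshold, *Tmem173* (0.55, adjusted p = 0.0600), *Ifitm1* (1.06, adjusted p = 0.207) and *Ifit3b* (-0.69, adjusted p = 0.117). *Ifitm1* (1.11, adjusted p = 0.0608) and *Ifit3b* (-0.70, adjusted p = 0.0716) also missed it in the libraries of replicates 1 to 8.

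Depth limits *Oas3*, *Mx1* and the ligands. Tamoxifen and deletion cannot be told apart, sex and batch are not in the labels, and levels in whole condylar heads mix cell types whose marker lists differed between the groups.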
